A study of Homo sapiens with 4 samples.

Results

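CpG methylation was measured in 3 pericentromeric blocks of the human genome, on chromosomes 8, 13 and 18, in WT HEK293T cells and in ZNF274KO HEK293T cells, with 2 libraries in each group. The blocks lay on hg19 at chr8:47400000-47900000, chr13:19020000-19700000 and chr18:14700000-15410000, and were cut into 5 kb tiles, each used where every library had at least 20 reads on its CpGs. All 378 tiles of the blocks met this minimum, among 563538 tiles on the autosomes and X, and they held 2996, 6109 and 5743 CpGs. The blocks were chosen on the same contrast that is described here, as places far from Krüppel-associated box zinc finger protein (KZFP) genes where methylation was higher in ZNF274KO, so that the difference between the groups inside them is a description, and the calls given for tiles and genes inside them are no test of it. HEK293T is an immortalized human embryonic kidney line. In ZNF274KO cells the whole ZNF274 gene had been removed by CRISPR-Cas9 with guides on both sides of it, and the edited cells were sorted as single cells, so that a knockout line is a clone. Nothing in the labels tells whether the libraries of a group came from separate clones or cultures, so that p-values measure the spread between these libraries alone.

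Methylation was read by EM-seq, an enzymatic method that deaminates cytosines without a methyl group, which then appear as T in the sequence, and spares methylated ones, which appear as C. The methylation level is the share of reads with C over the CpGs of a region, on both strands. Here and below reads were counted at each CpG, so that a read over several CpGs was counted at each of them. Over the body of ZNF274 on chromosome 19, WT 1 and WT 2 had 5158 and 4274 reads on CpGs, against 0 in ZNF274KO 1 and 14 in ZNF274KO 2. Counted in this way, the libraries held 241598512 to 295114493 read counts summed over the CpGs of the autosomes and X, which is more than their number of reads. Their median depth was 8 to 10 reads per CpG, and their overall level was between 58.4% and 60.4%. Methyl groups on CpGs are written and copied by DNA methyltransferases and are dense over most of the genome in somatic cells, while immortalized lines carry long partially methylated domains. Pericentromeric DNA lies between the satellite arrays of a centromere and the gene-bearing arms. It is rich in segmental duplications, young pseudogenes and heterochromatin. Chromosome 13 is acrocentric, and its short arm carries ribosomal DNA that lies in the nucleolus. ZNF274 is a KZFP that recruits KAP1 and SETDB1, which place the repressive histone mark H3K9me3.

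The DNA that carried large rises is shown by the window of 200 bases with the most CpGs within a tile of chromosome 13 and a tile of chromosome 18, both among the 3 largest rises of their block, with every CpG in capitals.
chr13:19437220-19437419, plus strand: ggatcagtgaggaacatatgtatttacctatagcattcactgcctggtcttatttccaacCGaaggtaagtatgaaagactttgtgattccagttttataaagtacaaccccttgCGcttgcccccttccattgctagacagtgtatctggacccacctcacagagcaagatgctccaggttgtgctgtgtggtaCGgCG
chr18:15329774-15329973, plus strand: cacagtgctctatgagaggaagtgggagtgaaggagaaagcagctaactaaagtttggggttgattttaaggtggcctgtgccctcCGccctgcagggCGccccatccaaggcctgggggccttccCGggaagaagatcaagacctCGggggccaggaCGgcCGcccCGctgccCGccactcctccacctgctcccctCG
The window of chromosome 13 lies in the pseudogene ANKRD20A9P, had 15 to 41 reads on 4 CpGs, and went from 34.1% and 25% in WT to 57.1% and 46.7% in ZNF274KO. The window of chromosome 18, where the pseudogene ENSG00000215512 and the long noncoding RNA gene ENSG00000290522 overlap, had 9 CpGs with 36.8% and 15.4% in WT and 61.7% and 51.1% in ZNF274KO. In both windows both ZNF274KO libraries were above both WT libraries. This did not hold for the densest window of every such tile, since at chr13:19190301-19190500, which is not printed, the levels were 38.9% and 36% in WT and 56.5% and 33.3% in ZNF274KO, with overlapping groups. Of the CpGs shown, 3 of 4 and 8 of 9 sat in a stretch of 100 bases that is found at no other place in the assembly on either strand after conversion, against 1 of 7 in the window that is not printed.

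Each block was higher in ZNF274KO than in WT as a whole. On chromosome 13 the level was 29.1% and 27.2% in WT 1 and 2 and 44.4% and 37.9% in ZNF274KO 1 and 2, or 28.1% ± 1.32 against 41.2% ± 4.58 (SD, n = 2), a difference of 13.02 percentage points. On chromosome 18 it was 31.9% and 31.4% in WT and 45.5% and 40.4% in ZNF274KO, or 31.7% ± 0.352 against 43.0% ± 3.55 (SD, n = 2), a difference of 11.3 points. On chromosome 8 it was 24.9% and 23.4% in WT and 33.0% and 29.5% in ZNF274KO, or 24.1% ± 1.06 against 31.2% ± 2.43 (SD, n = 2), a difference of 7.09 points. The groups did not overlap in any of the 3 blocks, which were chosen on this contrast. The share of such windows over the genome was not worked out. The blocks stayed far below the level of their chromosomes in both genotypes. Over the whole of chromosomes 8, 13 and 18 the WT means were 51.9%, 66.5% and 58.5%, and ZNF274KO was lower by 0.395, 1.52 and 0.608 points. ZNF274KO 1 was above ZNF274KO 2 by 3.44 points in the block of chromosome 8, by 6.47 in that of chromosome 13 and by 5.02 in that of chromosome 18. Without ZNF274KO 1 the differences were 5.37, 9.79 and 8.78 points, and without ZNF274KO 2 they were 8.81, 16.3 and 13.8 points. Genome-wide, ZNF274KO 1 was above ZNF274KO 2 in 66.5% of tiles, against 81.2% of the tiles of the blocks.

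The rise covered the block of chromosome 13 and most of that of chromosome 18, and it was largest in the latter part of that of chromosome 8. In steps of 100 kb, both ZNF274KO libraries were above both WT libraries in 7 of 7 steps on chromosome 13, with differences of 9.30 to 17.2 points, and in 7 of 7 on chromosome 18, with differences of 7.06 to 13.8 points. WT levels in these steps ranged from 6.51% to 39.8% on chromosome 13 and from 6.95% to 49.3% on chromosome 18, so that stretches almost free of methylation in WT and stretches of intermediate level both took part. The steps of the chromosome 18 block ended at chr18:15400000, and its short rest was left out. Some steps beside the blocks had both ZNF274KO libraries above both WT libraries too, and the share of such steps over the genome was not worked out. On chromosome 8 the first 100 kb had 25.6% and 26.4% in WT and 25.8% and 26.5% in ZNF274KO, a difference of 0.157 points with the groups overlapping. The fourth 100 kb had 16.7% and 13.7% in WT and 36.3% and 29.0% in ZNF274KO, a difference of 17.4 points. Split there after the values were seen, the first 300 kb of the chromosome 8 block rose by 2.78 points and the last 200 kb by 12.7 points. The end of the chromosome 18 block rose little. Its last 50 kb, the side of the centromere, chosen after its values were seen, had 46.1% and 45.0% in WT and 49.9% and 44.4% in ZNF274KO, a difference of 1.60 points against 12.4 points over the other 660 kb.

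**Figure D1:**
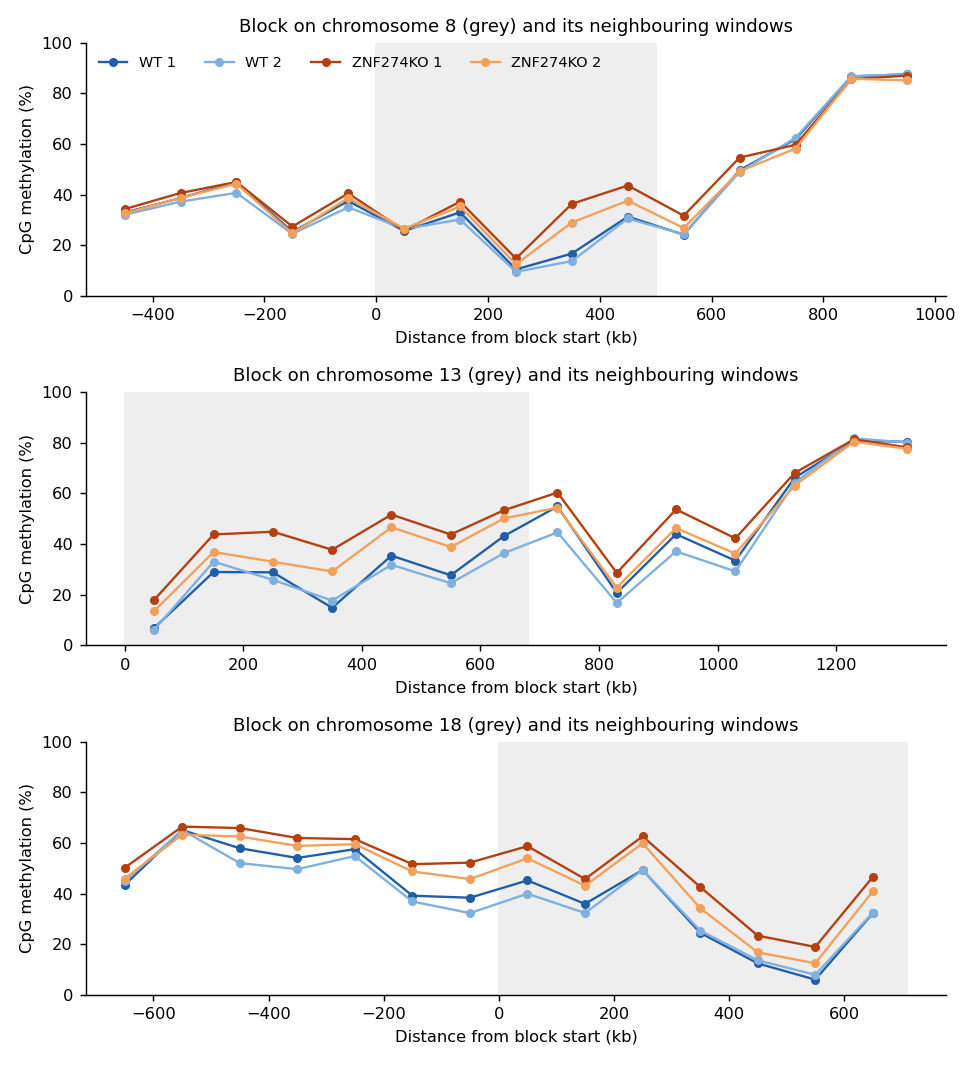
CpG methylation (%) in steps of 100 kb against the distance from the start of each block in kb, with 1 line for each library, over the blocks (grey) and the equally long windows beside them. On chromosomes 13 and 18 both ZNF274KO lines lie above both WT lines in 7 of 7 steps inside the grey area, and on chromosome 8 in 4 of 5. They do so in some steps outside the grey area as well, and the share of such steps over the genome was not worked out.

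Tile by tile, the rise was broad and of moderate size. ZNF274KO was above WT in 84 of 100 tiles on chromosome 8, 131 of 136 on chromosome 13 and 133 of 142 on chromosome 18, with median differences of 4.09, 13.9 and 11.8 points, where the median over all tiles tested was -0.582 points with quartiles of -2.55 and 1.56. Both ZNF274KO libraries were above both WT libraries in 57, 118 and 106 tiles, 281 of 378 or 74.3%, where 13.5% of all tiles were of this kind, and both were below in 2, 1 and 4 tiles, where 22.3% of all tiles were. With edgeR's quasi-likelihood test on methylated and unmethylated reads, adjusted over all tiles, 10 tiles were called higher on chromosome 8, 15 on chromosome 13 and 13 on chromosome 18. These 38 were 10.1% of the tiles of the blocks, against 0.474% of all tiles, and nothing is read from this since the blocks were chosen for it. None was called lower, where 0.0126% of all tiles were. At an unadjusted p under 0.05 edgeR gave 224 tiles higher and 0 lower, where 6.51% of all tiles were under it in either direction. limma called 7 higher and 0 lower. The number of calls moved with the library left out, in fits where 1 group has a single library that is assumed to vary like the other group. Without ZNF274KO 1, 2, 0 and 1 tiles were called, while without ZNF274KO 2 there were 13, 20 and 15. Without WT 1 there were 21, 41 and 31 calls, and without WT 2 there were 13, 35 and 25. With the replicate number as a block there were 19, 38 and 20 calls.

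The 38 called tiles rose by 11.5 to 35.8 points. Both ZNF274KO libraries were above both WT libraries in 38 of them, which is no separate support, since the calls rest on the same libraries. A WT level under 20% was the start of 28 of them, as of 214 of all 378 block tiles. Over the genome it was that of 1575 of the 2669 tiles called higher. On chromosome 8 they all fell between 300 and 420 kb from the start of the block, with a run of 4 adjacent called tiles over 20 kb, and on chromosomes 13 and 18 they were spread from 35 to 630 kb and from 40 to 635 kb. Stretches in which every tile had both ZNF274KO libraries above both WT libraries were longer. They reached 80 kb on chromosome 8, 215 kb at chr13:19450001-19665000 and 60 kb on chromosome 18.

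**Figure D2:**
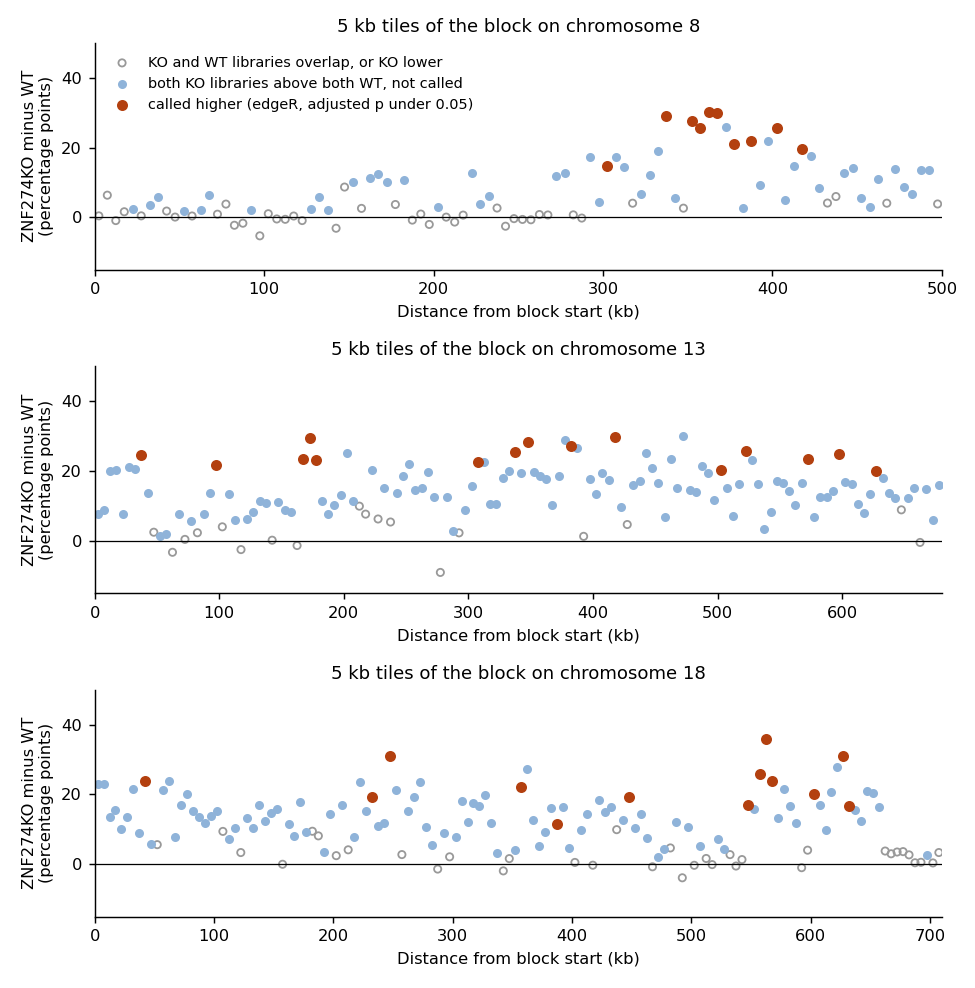
Difference of ZNF274KO mean minus WT mean (percentage points) for each 5 kb tile against the distance from the block start in kb. Filled dark points are the 10, 15 and 13 tiles called higher, light points have both ZNF274KO libraries above both WT libraries, and open points are the rest.

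The largest rises in tiles with at least 20 CpGs were of 27.6 to 35.8 points. On chromosome 18 the tile at chr18:15260001-15265000, in ENSG00000266818, had 14.1% and 19.4% in WT and 62.7% and 42.4% in ZNF274KO, a rise of 35.8 points over 40 CpGs. It was followed by chr18:15325001-15330000, with 22.7% and 13.4% in WT and 56.0% and 42.3% in ZNF274KO, and by chr18:14945001-14950000 at the start of LINC01443, with 39.7% and 28.0% in WT and 62.3% and 67.2% in ZNF274KO. In these tiles 19 of 40, 30 of 45 and 46 of 48 CpGs sat in a stretch of 100 bases without another exact copy. All 3 were called higher, and in the third ZNF274KO 2 was the higher library. On chromosome 13 the tile with the largest rise, at chr13:19490001-19495000 in LINC00408, had 40.2% and 18.6% in WT and 59.3% and 59.8% in ZNF274KO. It rose by 30.1 points but was not called, and its WT libraries differed more than its ZNF274KO libraries. The others were chr13:19435001-19440000 in ANKRD20A9P, with 19.3% and 16.8% in WT and 50.5% and 45.3% in ZNF274KO, and chr13:19190001-19195000, outside annotated genes, with 20.8% and 15.4% in WT and 51.4% and 43.9% in ZNF274KO. Both were called higher. In the latter only 13 of 47 CpGs sat in such a stretch, against 18 of 23 in the former and 36 of 39 in the tile in LINC00408. On chromosome 8 the 3 largest rises lay within LINC00293, a long noncoding RNA gene. They were chr8:47760001-47765000, with 39.1% and 28.1% in WT and 67.6% and 60% in ZNF274KO, chr8:47765001-47770000, with 10.95% and 7.69% against 43.1% and 35.2%, and chr8:47750001-47755000, with 15.7% and 5.94% against 43.7% and 33.2%. All 3 were called higher. The largest falls were small beside these, at -5.27 points at chr8:47495001-47500000 in the pseudogene ASNSP1, -9.03 points at chr13:19295001-19300000 in GXYLT1P1 and -3.84 points at chr18:15190001-15195000. In the fall on chromosome 13, ZNF274KO 2 alone was low, with 22.8% against 43.8% in ZNF274KO 1 and 41.3% and 43.4% in WT.

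The rise was present over the range of WT levels that the blocks held. Tiles with a WT level under 20% made up 214 of the 378, and their median difference was 10.2 points, against 0.240 points over 107535 such tiles of the genome. The 98 tiles from 20% to 40% had a median difference of 14.7 points, the 58 from 40% to 60% had 8.30 points, and the 8 above 60% had 6.47 points, where the medians over the genome were 0.976, 0.355 and -1.23 points. Chromosome 8 departed from this, as its 13 tiles from 40% to 60% had a median difference of 0.397 points.

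**Figure D3:**
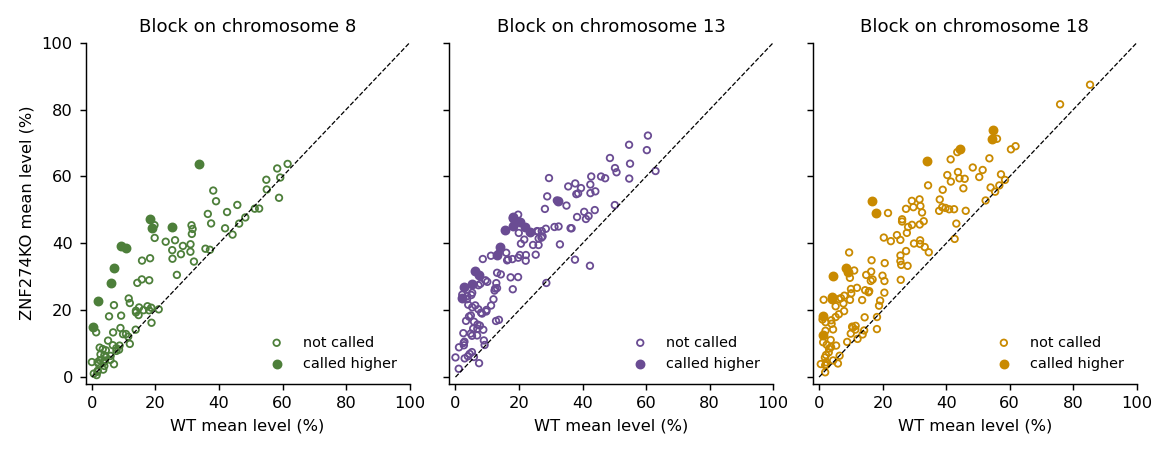
ZNF274KO mean level (%) against WT mean level (%) for each 5 kb tile of the 3 blocks, with the dashed line where both are equal. On chromosomes 13 and 18 most points lie above the line at all WT levels, with 131 of 136 and 133 of 142 tiles higher in ZNF274KO, and on chromosome 8 points close to the line are mixed with points far above it.

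Among CpGs that every library read 5 times or more, the shift was from unmethylated to intermediate levels. These were only 900 of 6109 CpGs on chromosome 13 and 1103 of 5743 on chromosome 18, and the others were left out. Among the 900 CpGs of the chromosome 13 block that every library read 5 times or more, 57.6% and 62.2% were under 20% methylated in WT 1 and 2, against 31.6% and 40.6% in ZNF274KO 1 and 2. Those from 20% to 80% were 29.3% and 26.7% of the CpGs in WT and 48.9% and 43.6% in ZNF274KO, and those above 80% were 13.1% and 11.1% in WT and 19.6% and 15.9% in ZNF274KO. CpGs without a methylated read were 44% and 51.1% in WT and 16.7% and 28.2% in ZNF274KO. The larger part of the shift was thus into the intermediate class. On chromosome 18, with 1103 CpGs, the share under 20% was 56.1% and 57.1% in WT and 37.9% and 45.6% in ZNF274KO, and the intermediate share was 27.8% and 29.2% against 43.2% and 36.0%. On chromosome 8, with 2215 CpGs, the share under 20% was 60.9% and 63.3% in WT and 47.3% and 53.7% in ZNF274KO, and the intermediate share was 31.4% and 29.6% against 40.9% and 36.4%. At these depths a share at 0 also contains partly methylated CpGs whose few reads were all unmethylated. A CpG read 5 times leaves the class under 20% with 1 methylated read.

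CpG-dense DNA took part unequally. CpGs in windows of 200 bases with at least 10 CpGs were 15.6% of those on chromosome 13, and had 61.6% and 59.5% in WT and 65.5% and 61.2% in ZNF274KO, with overlapping groups and a difference of 2.79 points, against 14.7 points for all other CpGs of that block. On chromosome 18 the dense CpGs had 67.0% and 69.4% in WT and 82.2% and 74.5% in ZNF274KO, a difference of 10.2 points, close to the 11.5 points of the others. On chromosome 8, where only 168 CpGs were dense, the difference was 2.76 points against 7.38. In annotated genes and pseudogenes the differences were 10.1, 13.9 and 14.1 points on chromosomes 8, 13 and 18, and between them they were 5.06, 12.1 and 9.41 points. Both ZNF274KO libraries were above both WT libraries in each of these classes except the dense CpGs of chromosome 13. How often this holds for such classes elsewhere in the genome was not worked out.

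Many of these CpGs lie in duplicated DNA, where reads can be placed on the wrong copy. A converted stretch of 100 bases around the CpG was found at no other place for 93.8% of CpGs on chromosome 8, 70.8% on chromosome 13 and 67.4% on chromosome 18. Chromosome 21, also acrocentric, was the most frequent other place for the blocks of chromosomes 13 and 18, with a copy of 13.7% of the stretches from chromosome 13 and 11.5% of those from chromosome 18, and 10.6% of the stretches from chromosome 13 had a copy on chromosome 18. CpGs in unique stretches rose by 7.22, 13.8 and 11.6 points, and CpGs in stretches with other copies by 5.02, 10.5 and 10.3 points. Only exact copies in the assembly were counted, so that a stretch called unique can still have a near copy or a copy in a gap. The part of misplaced reads in the level differences was not tested. In unique stretches of chromosome 13 the levels were 30.6% and 28.4% in WT and 46.3% and 40.3% in ZNF274KO, and on chromosome 18 they were 35.7% and 34.7% in WT and 49.4% and 44.2% in ZNF274KO. The level differences on reads of each strand alone were 6.83 to 7.35 points on chromosome 8, 12.6 to 13.5 points on chromosome 13 and 10.9 to 11.6 points on chromosome 18.

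The blocks were poor in protein-coding genes. They overlapped 79 annotated genes, of which 38 were pseudogenes, 31 were long noncoding RNA genes and 1, ANKRD30B, was protein-coding. Over the 58 gene bodies that every library read 20 times or more, the median difference was 11.6 points, both ZNF274KO libraries were above both WT libraries in 44, or 75.9%, where 12.3% of all gene bodies were of this kind, and 17 were called higher by edgeR, where 1.11% of all were. None was called lower, where 0.0419% of all gene bodies were. At an unadjusted p under 0.05 edgeR gave 39 higher and 0 lower, where 3712 of all 52472 gene bodies were under it in either direction. limma called no gene body in the blocks or elsewhere. The 17 were 10 long noncoding RNA genes, 6 pseudogenes and ANKRD30B. Several of these annotations overlap one another and share CpGs.

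ANKRD30B, an ankyrin repeat gene related to the breast antigen gene ANKRD30A, had 44.3% and 39.1% in WT and 55.8% and 52.1% in ZNF274KO over 1047 CpGs at chr18:14728271-14854666. Within 1 kb of its start the level was 12.7% and 9.30% in WT and 23.8% and 15.9% in ZNF274KO. On chromosome 13 the longest body was PHF2P2, a pseudogene of the histone demethylase gene PHF2, with 33.6% and 29.3% in WT and 49.3% and 43.98% in ZNF274KO over 1197 CpGs. ANKRD20A9P, of an ankyrin repeat family spread over pericentromeres, had 24.7% and 28.2% in WT and 47.8% and 39.1% in ZNF274KO. In LINC00408 the levels were 26.2% and 17.2% in WT and 45.5% and 39.9% in ZNF274KO. In each of these bodies the groups did not overlap, and all 4 were called higher. None of the 4 was called without ZNF274KO 1, and LINC00408 was not called without ZNF274KO 2. ANKRD30B was called neither without ZNF274KO 2 nor without WT 2.

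The zinc finger pseudogene ZNF962P, at the centromeric end of the chromosome 13 block and outside the rule for named genes, had 10.9% and 6.34% in WT and 35.01% and 22.99% in ZNF274KO and was called higher. ENSG00000287861, with 514 CpGs, had 43.3% and 36.2% in WT and 50.4% and 48.0% in ZNF274KO and was not called. On chromosome 18, LINC01443 had 36.9% and 30.4% in WT and 51.3% and 53.3% in ZNF274KO, and around its start 48.0% and 43.4% in WT and 76.9% and 74.1% in ZNF274KO. That start site had the largest difference, 29.8 points, of the 16 start sites of the named genes, where 14 had both ZNF274KO libraries above both WT libraries. The share of such start sites over the genome was not worked out. The 16 are not all separate, since ENSG00000215512 and ENSG00000290522 start at chr18:15330281 and chr18:15330262 and share most of the CpGs there. ENSG00000215512 had 13.4% and 10.3% in WT and 39.2% and 27.3% in ZNF274KO. ENSG00000263635 was low in every library, with 7.40% and 7.88% in WT and 19.98% and 14.4% in ZNF274KO.

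On chromosome 8, LINC00293 had 17.7% and 15.2% in WT and 39.3% and 31.4% in ZNF274KO over 437 CpGs, a difference of 18.9 points, and it was called higher. The pseudogene of asparagine synthetase ASNSP1, which lies across the first and second 100 kb of the block, had 58.1% and 54.8% in WT and 54.5% and 57.7% in ZNF274KO, with overlapping groups. The downstream genes ENSG00000253745 and ENSG00000253782 had differences of 8.50 and 9.48 points, with both ZNF274KO libraries above both WT libraries, and were not called.

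**Figure D4:**
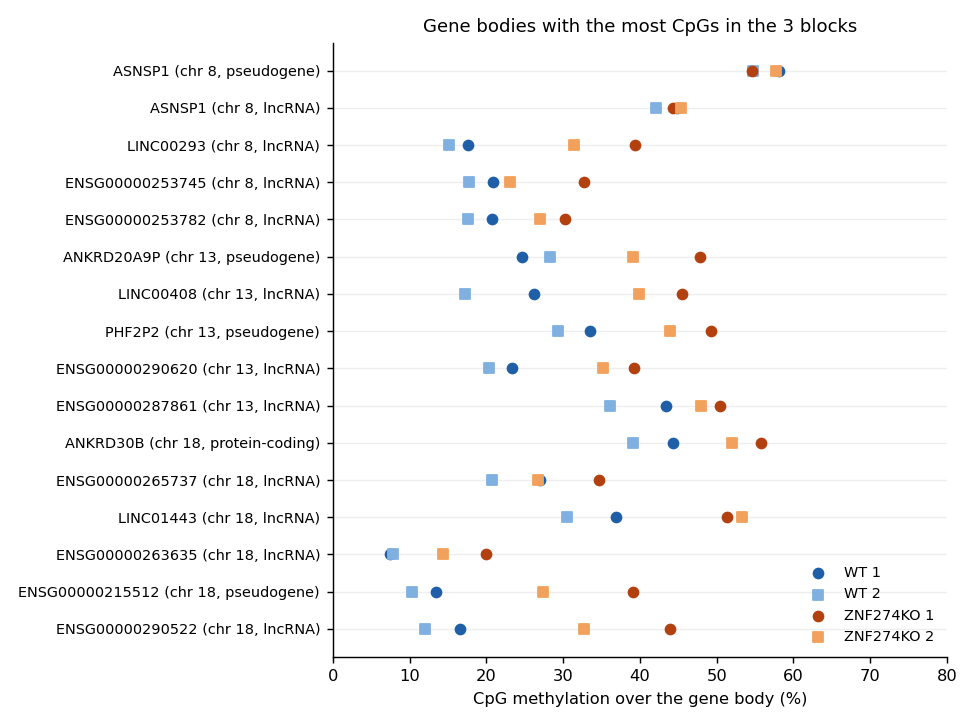
CpG methylation (%) over the bodies of the named genes of the 3 blocks, with 1 point for each library. In 13 of the 16 bodies both ZNF274KO points lie to the right of both WT points, where 12.3% of all gene bodies have both ZNF274KO libraries above both WT libraries. The points of the ASNSP1 annotations on chromosome 8 lie together.

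Gene families typical of pericentromeres also have members outside the blocks. Over 89 bodies of the ANKRD20A, ANKRD26, ANKRD30, POTE, TPTE, TUBA3, FAM230, GGT, BAGE and NF1P families the median difference was 0.313 points and 22 had both ZNF274KO libraries above both WT libraries, where 12.3% of all gene bodies were of this kind. Among these 22, POTEC and NF1P5 lay in the window before the chromosome 18 block, and ANKRD26P3, TPTE2 and TUBA3C in that after the chromosome 13 block. Nor are the 22 all separate, since NF1P9 and NF1P2 cover the same place on chromosome 15. edgeR called 0, where 1.11% of all gene bodies were called higher, and limma called 0. At an unadjusted p under 0.05 edgeR gave 12 higher and 2 lower, where 3712 of all 52472 gene bodies were under it in either direction. The other ANKRD20A bodies, 16 in number, had a median difference of 1.299 points, and the other ANKRD30 bodies, 5 in number, had 4.45 points. POTEC, in the window beside the chromosome 18 block, had 38.2% and 33.2% in WT and 48.2% and 43.9% in ZNF274KO. The nearest coding gene with a ZNF symbol was ZNF519, 567.5 kb from the chromosome 18 block, and ZNF703, 9842 kb from the chromosome 8 block, while chromosome 13 had none in the annotation used.

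Read depth had no part in choosing the blocks. Relative to the autosomes, reads per CpG were 0.936 and 0.896 in WT and 0.950 and 0.943 in ZNF274KO on chromosome 8, 0.517 and 0.502 against 0.524 and 0.494 on chromosome 13, and 0.555 and 0.552 against 0.584 and 0.572 on chromosome 18. The ratio of ZNF274KO to WT was 1.03, 0.999 and 1.04. An exact two-sided permutation test over the 4 libraries gave p = 0.333, 1 and 0.333 (adjusted over the 3 blocks, 0.5, 1 and 0.5), and 0.333 is the smallest p that 2 against 2 allows, so that the test could not call a difference of any size. On this scale both ZNF274KO libraries were above both WT libraries on chromosomes 8 and 18, and the groups overlapped on chromosome 13. Relative to their own chromosomes the groups overlapped in all 3 blocks, with ratios of 1.01, 0.993 and 1.01. The part of depth in the level differences was not tested. The blocks of chromosomes 13 and 18 were read far below the autosomal depth in every library.

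Neighbouring sequence held few calls, but many of its tiles were higher in ZNF274KO. In windows as long as the block on each side outside the assembly gap, 1 of 477 tiles was called higher, or 0.210%, against 0.474% of all tiles, and 0 were called lower. Both ZNF274KO libraries were above both WT libraries in 187 of the 477, where 13.5% of all tiles were of this kind. edgeR gave 81 higher and 5 lower at an unadjusted p under 0.05 there, where 6.51% of all tiles were under it in either direction. limma called 0. The called tile was at chr13:20000001-20005000, with 39.7% and 36.6% in WT and 67.5% and 63.4% in ZNF274KO (adjusted p = 0.0191, edgeR quasi-likelihood test). Without WT 1 edgeR called 21 tiles in these windows, without WT 2 it called 3, and without either ZNF274KO library it called 0. The window before the chromosome 18 block was 6.35 points higher, with 52.2% and 49.7% in WT and 59.0% and 55.6% in ZNF274KO, and 84 of its 142 tiles, or 59.2%, had both ZNF274KO libraries above both WT libraries. After the chromosome 13 block the difference was 3.06 points, with 60.3% and 57.3% in WT and 63.8% and 59.9% in ZNF274KO and overlapping groups. The first 4 steps of 100 kb after it rose by 7.63, 6.99, 9.50 and 7.92 points, with groups overlapping in the first, and the remaining 3 steps changed by 0.421, -0.394 and -2.32 points, so that the end of that block is no edge. Before and after the chromosome 8 block the difference was 2.02 and -0.295 points. The first 100 kb after that block rose by 4.98 points, with 24.2% and 24.3% in WT and 31.7% and 26.8% in ZNF274KO. The next step rose by 2.65 points with overlapping groups, and the steps after it changed by -3.25, -1.04 and -1.46 points. On chromosome 18 the 2 steps of 100 kb just before the block rose by 12.2 and 13.6 points, as much as the block itself, so that its start is no edge either.

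At the edges, the first tile of the chromosome 13 block, beside the assembly gap, rose by 7.71 points, its last tile rose by 15.9 points and the next one outside by 9.87 points. On chromosome 18 the last tile before the block rose by 8.48 points and the first inside by 23.04 points, and at the other end the last inside rose by 3.39 points and the next outside by 5.30 points. On chromosome 8 the tile before the block changed by -0.389 points and the first inside by 0.442 points, and the last inside rose by 3.85 points and the next outside by 11.3 points. The block of chromosome 13 started at the assembly gap of its short arm and centromere, that of chromosome 18 ended 899 bases from the centromere gap, and that of chromosome 8 lay 561 kb from its gap.

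Sequence next to other large assembly gaps was raised in a few places. The first 500 kb beside the gaps of at least 1 Mb on other chromosomes, most of them at centromeres or short arms, gave 40 windows, of which a pair on chromosome 2 overlap, with a median difference of -0.572 points and a range from -3.57 to 12.7 points. Both ZNF274KO libraries were above both WT libraries in 8 windows and below both in a larger number, among them both windows of chromosome 12 and both of chromosome 17. The shares over all windows of this length in the genome were not worked out. Unlike the blocks, the windows were not chosen for distance from KZFP genes, and that distance was not worked out for them. Of the 3551 tiles of the 40 windows, each counted once, 46 were called higher, or 1.295%, and 0 lower, where 0.474% and 0.0126% of all tiles were. edgeR gave 276 higher and 117 lower at an unadjusted p under 0.05, where 6.51% of all tiles were under it in either direction. limma called 8 higher and 1 lower. The calls lay in 5 of the 40 windows. The window before the gap of chromosome 7 had 22 of them in 99 tiles, with 28.5% and 27.7% in WT and 47.1% and 34.6% in ZNF274KO, a difference of 12.7 points. Its ZNF274KO libraries, with an SD of 8.81 points, stood further apart than those of the 3 blocks, and ZNF274KO 1 was the higher. The window after the gap of chromosome 15 had 1 call and a difference of 7.20 points, and that before the gap of chromosome 19 had 8 calls and 5.08 points. That after the gap of chromosome 2 at chr2:95326172-95826171 had 4 calls and 2.37 points. The window after the gap of chromosome 10 had 11 calls although its level fell by 3.57 points, and it had 892449 to 1039308 reads on its CpGs in a library, exceeded among the 40 by the window after the gap of chromosome 16, with 1470610 to 1816256 reads, a fall of 2.54 points and 0 calls. On the block chromosomes, the windows before and after the gap of chromosome 8 changed by -2.61 and -1.30 points, with overlapping groups. In the latter the median tile difference was 1.79 points. The window after the gap of chromosome 18 changed by -1.29 points, with both ZNF274KO libraries below both WT libraries. Each of these had 0 calls.

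**Figure D5:**
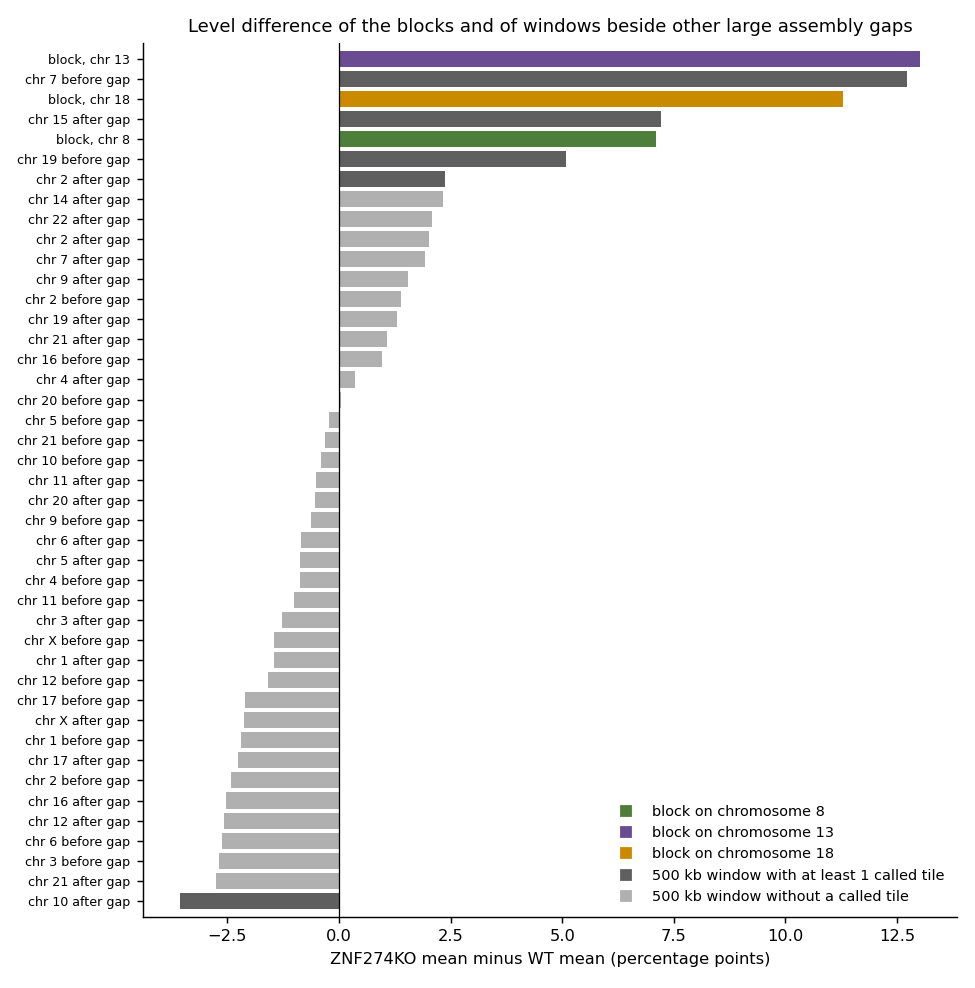
ZNF274KO mean minus WT mean (percentage points) for the 3 blocks and for 40 windows of 500 kb beside assembly gaps of at least 1 Mb on other chromosomes, ordered by size. The blocks lie at 13.02, 11.3 and 7.09 points, and of the other windows those of chromosome 7 (12.7) and chromosome 15 (7.20) are in the same range. Windows beside the gaps of the block chromosomes are not drawn.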

How the data were processed

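The authors aligned the reads with Msuite2 and HISAT2 to hg19 with a ribosomal DNA sequence added, and deposited for each library the counts of converted and unconverted reads at every CpG on each strand. Their summary of a region, a 75th percentile over replicate means, was not used here. The deposited counts were summed over 5 kb tiles and over GENCODE gene bodies on the autosomes and X, and every CpG position of the blocks was checked against GRCh37. Regions with at least 20 reads in every library were tested with edgeR 4.0.16 (quasi-likelihood test on methylated and unmethylated reads, a term per library, Benjamini-Hochberg adjustment over all tiles or all gene bodies, threshold 0.05), in R 4.3.3. The steps were tested on simulated data. limma 3.58.1 on log2 ratios (pseudocount 1) and other settings were alternatives. Counts at neighbouring CpGs can come from the same read, and reads without molecular identifiers need not be independent molecules. The summed counts are therefore not counts of independent molecules.

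The blocks, gene lists and tests were chosen with earlier results of these data known. Named tiles were the 3 largest rises with at least 20 CpGs in each block, the largest fall, and the tiles at the edges. Named genes were the protein-coding gene, the 5 other gene bodies per block with the most CpGs, and called members of the same families elsewhere. Sequence is printed for 1 window on each of chromosomes 13 and 18, and 1 more window is described. A planned split by masked repeats was not made, since the genome used here carries no repeat marking.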

Additional observations from a re-analysis of the deposited data

How the results depend on the processing

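The level differences of the 3 blocks moved by less than the SD of the ZNF274KO libraries with uniquely placed stretches, either strand, other read minimums, unweighted means and subtraction of the genome-wide difference. With each library left out (leaving out 1 of 2 libraries cannot move their mean by more than their SD) they ranged from 5.37 to 8.81 points on chromosome 8, from 9.79 to 16.3 on chromosome 13 and from 8.78 to 13.8 on chromosome 18. Counts of calls moved far more. Over the genome 2740 tiles were called, 1425 with 10 kb tiles, 856 with limma, and 1896 to 6545 with a library left out. In the blocks of chromosomes 8, 13 and 18 there were 10, 15 and 13 calls. With limma there were 2, 3 and 2, with 10 kb tiles 6 on chromosome 8, with CpGs read 3 times in every library 6 and 8 on chromosomes 13 and 18, and with a library left out 2 to 21, 0 to 41 and 1 to 31, the lowest in each case without ZNF274KO 1. The windows beside the blocks had 1 call, against 0 with 10 kb tiles, 0 with limma, 2 with CpGs read 3 times in every library and 0 to 21 with a library left out. Of gene bodies 607 were called, 0 with limma, 281 without ZNF274KO 1 and up to 928 with another library left out. Fewer tiles were tested at 10 kb and fewer libraries when one was left out, and otherwise the cause was not tested.

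The libraries share replicate numbers, but nothing in the labels says that a number marks a shared batch, and the deviations of same-numbered libraries from their group means correlated at -0.108 over all tiles. With the replicate block 4795 tiles were called over the genome, with 19, 38 and 20 in the blocks and 3 beside them. Numbers paired crosswise, chosen after seeing the data, gave 6649 calls, with 21, 60 and 42 in the blocks and 16 beside them.

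The depth ratio of the chromosome 13 block was 0.999, and it lay above 1 in uniquely placed stretches (1.003); with a library left out it ranged from 0.970 to 1.03. Of the 28 named tiles and genes, 18 were called, and 3 of these 18 were called without ZNF274KO 1, 13 without ZNF274KO 2, 17 without WT 2, 18 with the replicate block and 0 with limma. The signs of 2 of these turned: on the log2 odds scale the fall on chromosome 13 ranged from -1.31 to 0.088 with a library left out, above 0 only without ZNF274KO 2, and ASNSP1 was 0.0086 with libraries centred and ranged from -0.12 to 0.078 with a library left out. The smallest difference that a tile could show with 2 libraries a group was not worked out.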
